A study of Mus musculus with 9 samples.

Results

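The genes described here are those whose symbol starts with Nduf, the family name of the nuclear-encoded proteins of respiratory complex I and its helpers. Members were taken by symbol, with the requirement of at least 1 TPM (a transcript abundance scaled by transcript length and library total) in at least 3 of 9 libraries. All 45 Nduf symbols among the 23412 in the table met it, so no member was lost to the level requirement, and 14336 genes in all met it and were tested. By role, 36 members encode complex I subunits and 7 encode assembly factors (Ndufaf1 to Ndufaf7). The remaining 2, Ndufa4 and Ndufa4l2, carry the name but are now counted with complex IV.

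Complex I is the largest enzyme of the mitochondrial respiratory chain. Its matrix arm takes electrons from NADH through a flavin and a chain of iron-sulfur clusters to ubiquinone, and its membrane arm uses the energy released to pump protons. Core subunits carry the reaction, accessory subunits surround and stabilise them, and assembly factors join the modules but are absent from the finished enzyme. In the brain, the complex supports the high ATP demand of synapses, and inherited defects in many of its genes cause Leigh syndrome. The subunits of the membrane arm that are encoded by mitochondrial DNA, and Ndufb1, were not analysed here.

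RNA was sequenced from the hippocampus of wild-type mice at postnatal day 21, with 3 libraries in each of 3 groups. Controls were labelled sham. The PFOS P1-7 group had been exposed to perfluorooctane sulfonate (PFOS), a persistent surfactant, on postnatal days 1 to 7, and the PFOS P8-14 group on days 8 to 14. The dams received 1 mg/kg PFOS daily by gavage and the pups took it up with the milk, so the pups' own dose is not known. The study asked which postnatal window is the sensitive one. Strain, sex and litter are not given in the labels, nor whether each library is a separate animal, so the p-values measure only the spread between these libraries, which may be technical.

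The hippocampal label was checked against markers. The excitatory neuron genes Slc17a7, Camk2a, Neurod6, Prox1 and Wfs1 were present in all 9 libraries, with Prox1, the dentate granule cell marker, at 17.1 to 51.5 TPM. Control replicates 2 and 3 held the lowest values of Prox1 (27.4 and 17.1 TPM), Camk2a (1584 and 1408 TPM) and Wfs1 (122 and 152 TPM). For Slc17a7 and Neurod6 they were not both lowest. The part of this in the results was not tested. Libraries stood apart in several ways that touch the results. First, Ttr, a gene of the choroid plexus, split them: replicates 1 and 2 of PFOS P8-14, replicates 1 and 3 of PFOS P1-7 and replicate 3 of the controls held between 9446 and 11626 TPM, and the other 4 libraries between 35.1 and 107.7 TPM. Second, long and short transcripts deviated in opposite directions. In control replicate 2 the rank correlation of deviation with length over tested genes was -0.41, in control replicate 3 it was -0.49, and in PFOS P8-14 replicate 2 it was -0.19. The other 6 libraries had positive values, from 0.13 to 0.44. TPM keep no depth, so the depth of each library is unknown. In bulk tissue, fewer cells of a type and less RNA per cell cannot be told apart.

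Promoter sequences from RefSeq (build GRCm38.p6) are shown for 5 members on which the comparisons turn: Ndufb5, Ndufa8 and Ndufa11, the subunits with the smallest p below control after early exposure; Ndufaf4, an assembly factor; and Ndufab1, the subunit with the smallest p above control after late exposure. Each is the 150 bases before the transcript start of RefSeq's promoter window, which for Ndufb5 lies just inside the gene's outermost start, read 5′ to 3′ on the gene's own strand, and capitals mark letters that match a searched motif. Ndufb5 lies at chr3:32736913-32737062 (plus strand), Ndufa8 at chr2:36049339-36049488 (minus strand), Ndufa11 at chr17:56717612-56717761 (plus strand), Ndufaf4 at chr4:24897933-24898082 (plus strand) and Ndufab1 at chr7:122101849-122101998 (minus strand).
Ndufb5: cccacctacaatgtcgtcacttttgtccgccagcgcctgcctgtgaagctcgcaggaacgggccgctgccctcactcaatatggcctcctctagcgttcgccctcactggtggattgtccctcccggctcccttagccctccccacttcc
Ndufa8: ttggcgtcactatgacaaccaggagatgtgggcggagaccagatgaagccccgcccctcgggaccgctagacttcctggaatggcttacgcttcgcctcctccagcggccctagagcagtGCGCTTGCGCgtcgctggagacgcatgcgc
Ndufa11: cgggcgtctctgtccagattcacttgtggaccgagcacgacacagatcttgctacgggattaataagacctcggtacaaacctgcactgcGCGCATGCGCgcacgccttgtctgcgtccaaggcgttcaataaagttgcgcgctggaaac
Ndufaf4: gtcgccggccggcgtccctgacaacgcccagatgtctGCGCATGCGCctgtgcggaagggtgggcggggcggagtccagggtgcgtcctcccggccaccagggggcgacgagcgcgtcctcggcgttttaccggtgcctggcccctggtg
Ndufab1: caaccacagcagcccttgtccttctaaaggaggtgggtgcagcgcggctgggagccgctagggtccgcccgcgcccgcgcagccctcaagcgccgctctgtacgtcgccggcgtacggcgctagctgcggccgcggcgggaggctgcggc
The capitals in Ndufa8, Ndufa11 and Ndufaf4 are matches, on either strand, to GCGCANGCGC, the letters bound by NRF1 (nuclear respiratory factor 1), a textbook regulator of respiratory chain genes. They lie 30 to 21, 60 to 51 and 113 to 104 bases before the start. The Ndufb5 and Ndufab1 stretches hold none of the searched letters, which says nothing about the factors.

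A window of 300 bases (250 before the start and 50 after) was held for 39 of the 45 members and searched on both strands. The NRF1 letters occurred in 9 of the 39 windows (23.1%), against 9.84% of the windows of 10551 tested genes and 4.78% of all 27025 windows. Those 9 members were Ndufa5, Ndufa6, Ndufa8, Ndufa11, Ndufaf4, Ndufaf5, Ndufb4, Ndufs5 and Ndufs6, and Ndufb4 held the letters at 3 places. The YY1 letters AAGATGGCG occurred in 5 windows (12.8%, against 2.97% and 1.495%), all of them after the start: Ndufa9, Ndufc1, Ndufs4, Ndufs6 and Ndufs7. The ETS letters CCGGAAG, which GABP binds, occurred in 5 windows (12.8%), below the 16.5% of tested genes and above the 9.12% of all windows. The letters TCAAGGTCA of estrogen-related receptors occurred in none of the 39, and in 0.332% of tested genes' windows. No searched motif contains another. A match is a description and not a bound site.

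Among the members, transcript level ran from Ndufa4 at a mean of 1809 TPM over the 9 libraries to Ndufa4l2 at 6.58 TPM. TPM are scaled per length, so these levels can be compared between genes, but only roughly. The scaling leaves the differences between libraries by transcript length. The values of Ndufa11, Ndufab1, Ndufb4 and Ndufs6 are uncertain because of annotated pseudogene copies. Subunits had a median mean level of 304 TPM, with Ndufa3 highest (1064 TPM), then Ndufb9 (822 TPM) and Ndufb8 (734 TPM), and Ndufa11 lowest (58.3 TPM). Assembly factors lay well below, at a median of 31.1 TPM, from Ndufaf6 (9.42 TPM) to Ndufaf2 (63.7 TPM). In the order of mean levels, Ndufa4 stood clear of Ndufa3, Ndufb5 of Ndufv2, and Ndufs4 of Ndufaf2, in that the ranges over the 9 libraries did not overlap. The same held at 3 steps among the assembly factors. The other neighbours overlapped, and the middle of the order, from Ndufa3 to Ndufb5, is one continuous run. Ndufa11 was the only subunit whose range lay among the assembly factors.

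Spread within a group differed between genes. In control, the coefficient of variation over 3 libraries was 1.70% for Ndufs4, the accessory subunit whose loss in mice gives a Leigh-like disease, and 22.6% for Ndufv3, with a median of 9.43% over subunits. In PFOS P1-7 the median was 6.02%, from 1.59% for Ndufa8 to 30.6% for Ndufa13. In PFOS P8-14 it was 7.68%, from 1.03% for Ndufv1 to 22.7% for Ndufa13. The heat map of deviations shows how this spread ran by library. Control replicates 2 and 3 were each the highest of all 9 libraries for 11 of the 36 subunits, whereas control replicate 1 was the lowest of the controls for 22. Ndufa13, Ndufa1, Ndufs8 and Ndufv2 were higher in every replicate 1 library than in every other library, and Ndufa4, Ndufa5, Ndufa7, Ndufb3 and Ndufc2 were lower. These were 8.89% and 11.1% of members, beside 6.59% and 4.63% of the genes tested. These genes were picked out after their values were seen.

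**Figure D1:**
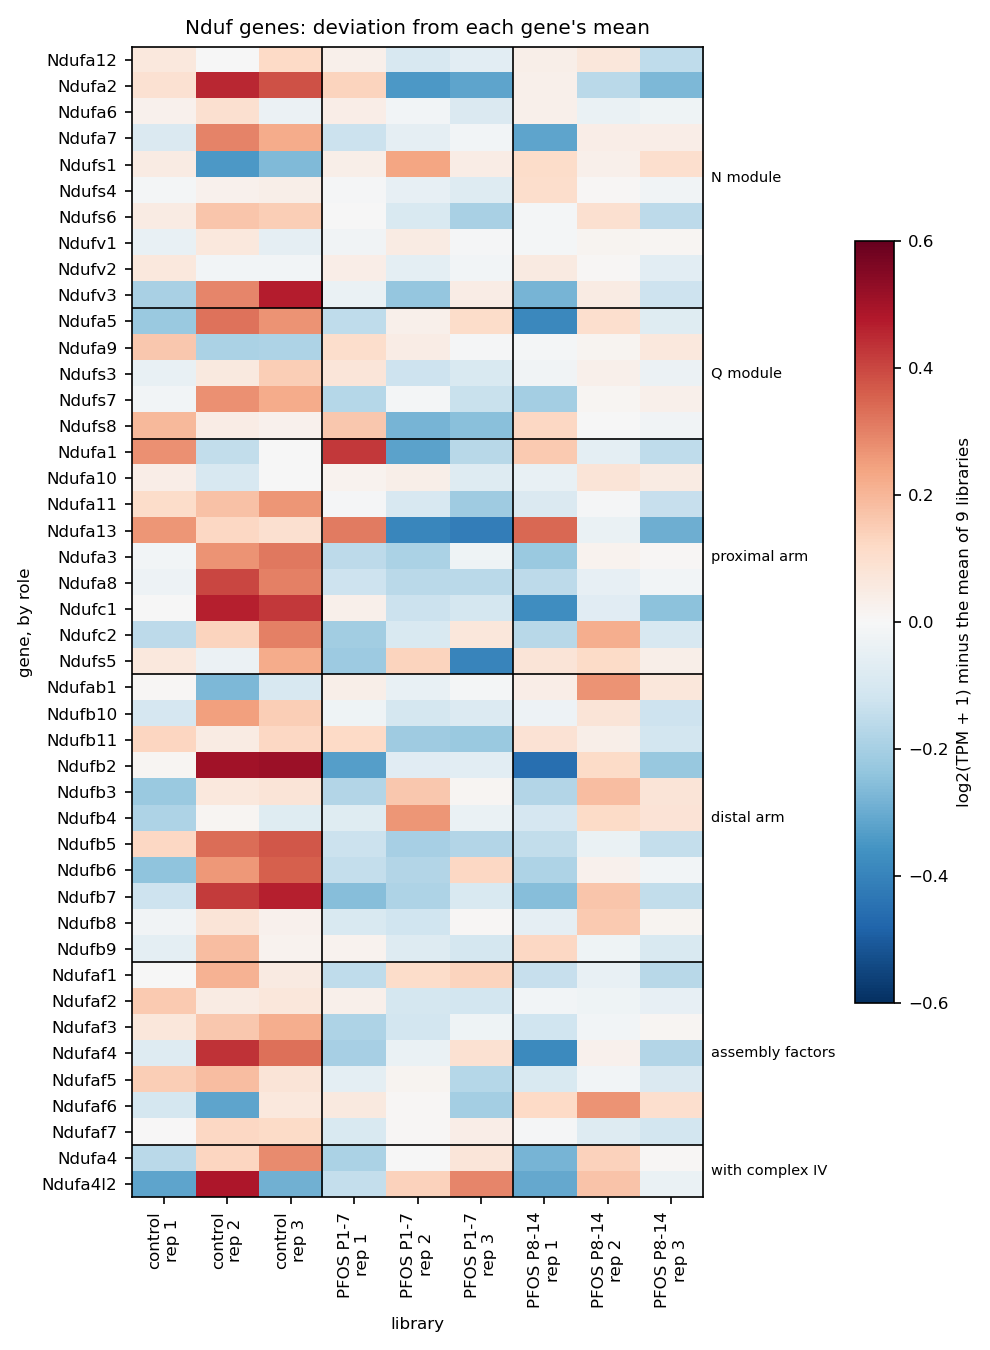
Each row is one of 44 Nduf genes, grouped by role, and each column is a library. Colour is log2(TPM + 1) minus the gene's mean over the 9 libraries, from -0.6 (blue) to 0.6 (red). Control replicates 2 and 3 carry most of the red cells, control replicate 1 does not, and Ndufs1 runs the other way.

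After exposure on days 1 to 7, most Nduf transcripts stood below control at day 21, by small amounts, and none passed the threshold of an adjusted p below 0.05. Of the 45 members, 35 were lower and 10 higher. The split was 40 and 5 with median-of-ratios scaling in place of TPM totals, 32 and 13 once the dependence on transcript length and GC content had been taken out of each library, and 29 and 16 with control replicate 1 left out as well. The median difference on the log2(TPM + 1) scale was -0.15, where the median of all tested genes was 0.09 and 34.5% of them were lower. With length and GC dependence taken out, 7407 of 14213 tested genes were lower. The median of all tested genes was 0.011 with median-of-ratios scaling, and -0.014 with control replicate 1 left out as well as the trend. The summed level of the 36 subunits was 14227 ± 978 TPM in control (SD, n = 3) and 12640 ± 286 TPM in PFOS P1-7. Each group spans its own range there, 13099 to 14814 and 12468 to 12970 TPM, without overlap. The median was -0.20 over the 20 subunits of the membrane arm and -0.10 over the 16 of the matrix arm, -0.19 over 29 accessory and -0.02 over 7 core subunits, and -0.15 over the assembly factors. No difference between these classes was tested.

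By limma with Benjamini-Hochberg adjustment over all genes, 0 members had an adjusted p below 0.05, as did 0.0% of all tested genes, and the smallest adjusted p among members was 0.181. At an unadjusted p below 0.05, 12 members (26.7%) were lower, where 5.79% of tested genes were. In the other direction it was 1 member (2.22%), Ndufs1, where 12.5% of tested genes were higher. All 3 exposed libraries lay below all 3 controls for 9 members (20%), beside 6.56% of tested genes. None lay above, beside 12.3%.

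After exposure on days 8 to 14 most members again stood below control. There, 34 of 45 members were lower and 11 higher (40 and 5 with median-of-ratios scaling, 27 and 18 after taking out length and GC dependence, 25 and 20 with control replicate 1 left out as well). Of all tested genes, 37.9% were lower as tested, and 7511 of 14213 after taking out length and GC dependence. As tested, the medians were -0.09 for subunits, -0.12 for the membrane arm, -0.06 for the matrix arm, -0.01 for core subunits and -0.19 for assembly factors, beside 0.06 for all tested genes. The summed subunit level was 12973 ± 602 TPM, and its highest library (PFOS P8-14 replicate 2, 13663 TPM) exceeded the lowest control. No member passed (0 of 45, smallest adjusted p = 0.424 in limma; 0.0% of tested genes). Unadjusted, 10 members (22.2%) were lower, beside 4.65% of tested genes, and 2 (4.44%) were higher, beside 6.33%. All exposed libraries were below all controls for 9 members, beside 5.99% of tested genes, and above them for Ndufab1 and Ndufaf6, beside 7.31%. Both comparisons use the same 3 controls, so their likeness is not independent.

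**Figure D2:**
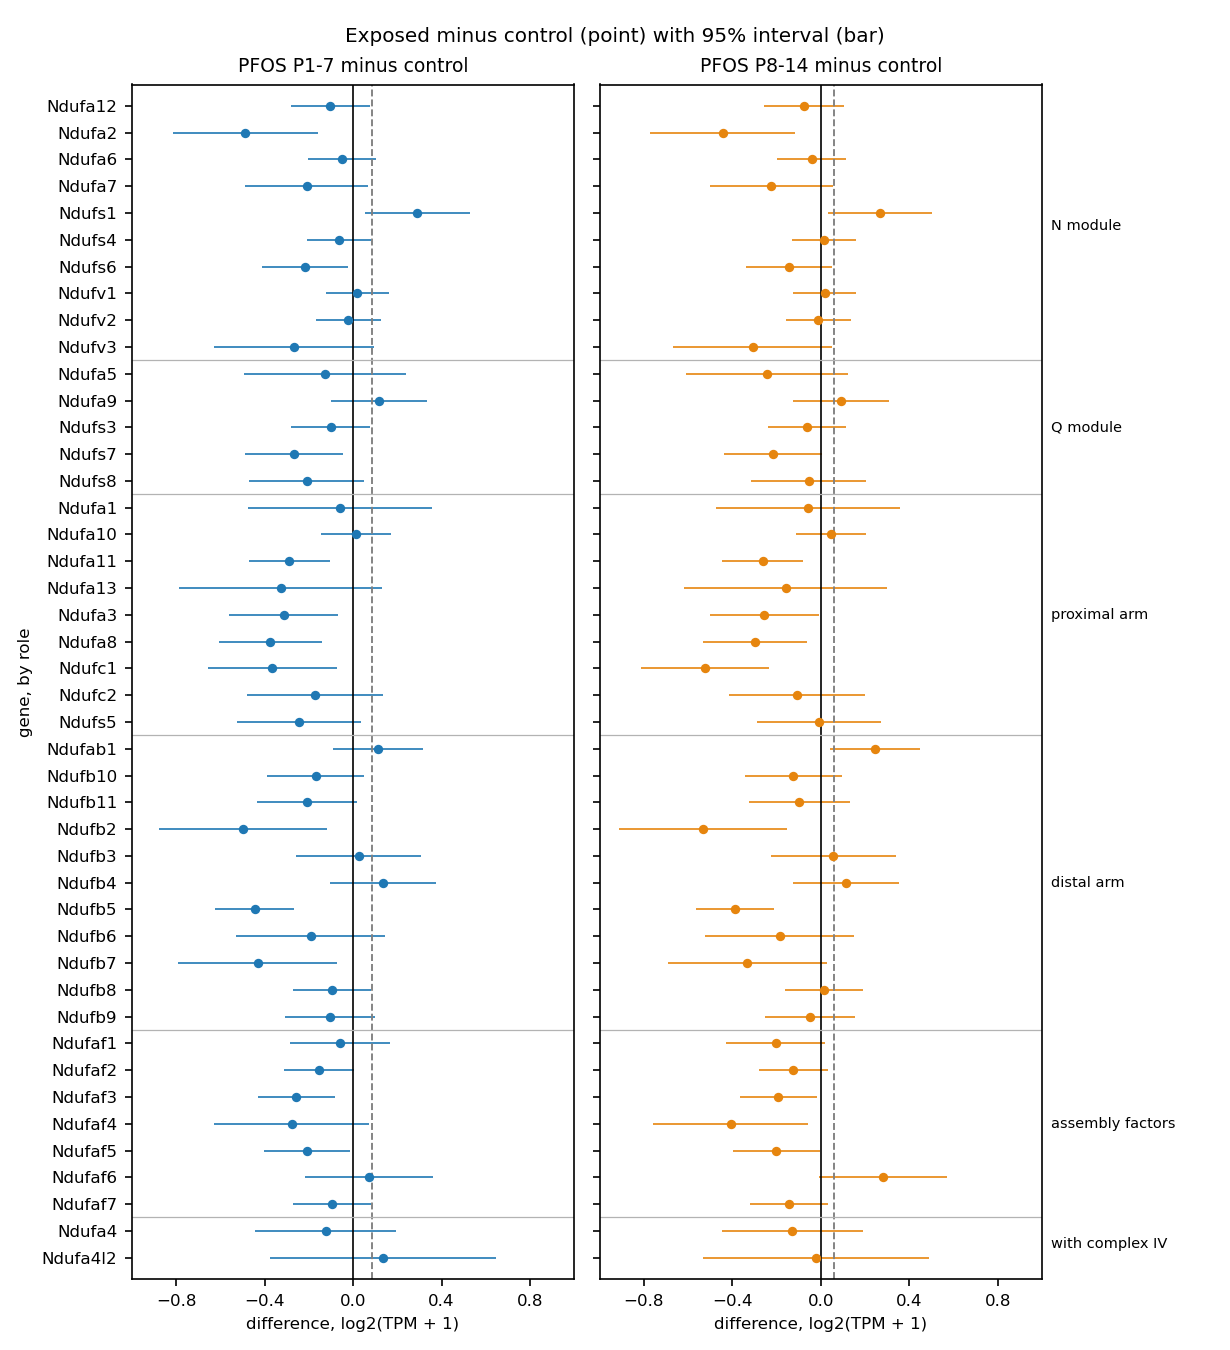
Points are differences from control on the log2(TPM + 1) scale for PFOS P1-7 (left) and PFOS P8-14 (right), with 95% intervals from limma, for 44 Nduf genes by role. The solid line marks 0 and the dashed line the median of all tested genes (0.09 and 0.06), and most points lie left of both. In both panels the intervals lie below 0 for Ndufb5, Ndufa2, Ndufa3, Ndufa8, Ndufa11, Ndufb2, Ndufc1, Ndufaf3 and Ndufaf5, and above 0 for Ndufs1.

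The smallest p-values below control belonged to subunits of the membrane arm. Ndufb5, an accessory subunit of the distal, proton-pumping end (chromosome 3, 32737057 to 32751559, GRCm38), stood at 206, 238 and 245 TPM in the controls, 172, 164 and 167 in PFOS P1-7 and 170.3, 183 and 171 in PFOS P8-14, with replicates 1 to 3 in that order here and below. Every exposed library was below every control. The mean was 26.9% lower in PFOS P1-7 and 23.8% lower in PFOS P8-14, as log2 differences of -0.45 (SE 0.08) and -0.39 (SE 0.08) with adjusted p = 0.181 and 0.424 in limma. Its exposed libraries varied little, at 168 ± 4.16 and 175 ± 7.24 TPM.

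Ndufa8 (chromosome 2, 36036324 to 36049338) encodes an accessory protein of the intermembrane-space face with paired cysteine motifs, and it is needed for assembly of the membrane arm. It stood at 232, 313 and 292 TPM in the controls, 218, 212 and 212 in PFOS P1-7 and 212, 229 and 235 in PFOS P8-14. The 3 early-exposed libraries were nearly identical and below all controls, while PFOS P8-14 replicate 3 exceeded control replicate 1 by a little. The differences were -0.37 (SE 0.10) and -0.30 (SE 0.10), with adjusted p = 0.189 and 0.426. Ndufa11 (chromosome 17, 56717762 to 56724248), a membrane subunit at the junction of the proximal and distal arm, stood at 62.6, 65.6 and 70.0 TPM in the controls, 57.8, 54.3 and 49.9 in PFOS P1-7 and 54.5, 57.7 and 52.6 in PFOS P8-14. Both exposed groups lay below all controls, with differences of -0.29 (SE 0.08) and -0.26 (SE 0.08), with adjusted p = 0.192 and 0.426. Ndufb5 and Ndufa11 were the only subunits below all controls in both groups. Of all members 5 were (11.1%; the others are the assembly factors Ndufaf2, Ndufaf3 and Ndufaf5), beside 3.44% of tested genes.

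Some small membrane subunits had wide gaps between groups together with wide spread among controls. Ndufb2, of the distal arm, stood at 286, 402 and 405 TPM in the controls, 225, 269.8 and 271 in PFOS P1-7 and 207, 307 and 242 in PFOS P8-14. Its controls split, replicate 1 being within the PFOS P8-14 range, and the differences were -0.50 (SE 0.17) and -0.53 (SE 0.17), with adjusted p = 0.219 and 0.426. Ndufc1, a single-span subunit of the proximal arm, stood at 368, 509 and 496 TPM in the controls, 376, 337 and 343 in PFOS P1-7 and 284, 352 and 311 in PFOS P8-14. It was below all controls after late exposure (-0.52, SE 0.13, adjusted p = 0.424) and overlapped after early exposure (-0.36, SE 0.13). Ndufa3, a small proximal subunit with the highest level of all subunits, stood at 1043, 1271 and 1315 TPM in the controls, 948, 926 and 1036 in PFOS P1-7 and 905, 1070.2 and 1059.6 in PFOS P8-14, a difference of -0.31 (SE 0.11) without overlap for PFOS P1-7 and -0.25 (SE 0.11) with overlap for PFOS P8-14. Ndufb7 had differences of -0.43 and -0.33, with control replicate 1 at 425 TPM and the other controls at 619 and 641 TPM.

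Other membrane subunits went the opposite way or hardly differed. Ndufab1 (chromosome 7, 122086815 to 122101848) is the mitochondrial acyl carrier protein, which serves both complex I and fatty acid synthesis. It stood at 245, 202 and 228 TPM in the controls, 249, 236 and 242 in PFOS P1-7 and 250.3, 293 and 256 in PFOS P8-14. All late-exposed libraries were above all controls (0.25, SE 0.09, adjusted p = 0.426), and above all early-exposed ones, while PFOS P1-7 overlapped control (0.11, SE 0.09). Ndufb4, of the distal arm, stood at 511, 585 and 551 TPM in the controls, 552, 698 and 565 in PFOS P1-7 and 542, 629.8 and 614 in PFOS P8-14, with overlapping groups and differences of 0.13 and 0.12. Ndufb8, also of the distal arm, stood at 723, 774 and 745 TPM in the controls, 688, 675 and 738 in PFOS P1-7 and 707, 817 and 743 in PFOS P8-14, with differences of -0.09 and 0.01, and Ndufa10 and Ndufb3 lay within 0.06 of 0 in both. Processed pseudogene copies of Ndufa11, Ndufab1, Ndufb4 and Ndufs6 are annotated, and how shared reads were assigned is not given in the sources used here, so values of these genes are uncertain.

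**Figure D3:**
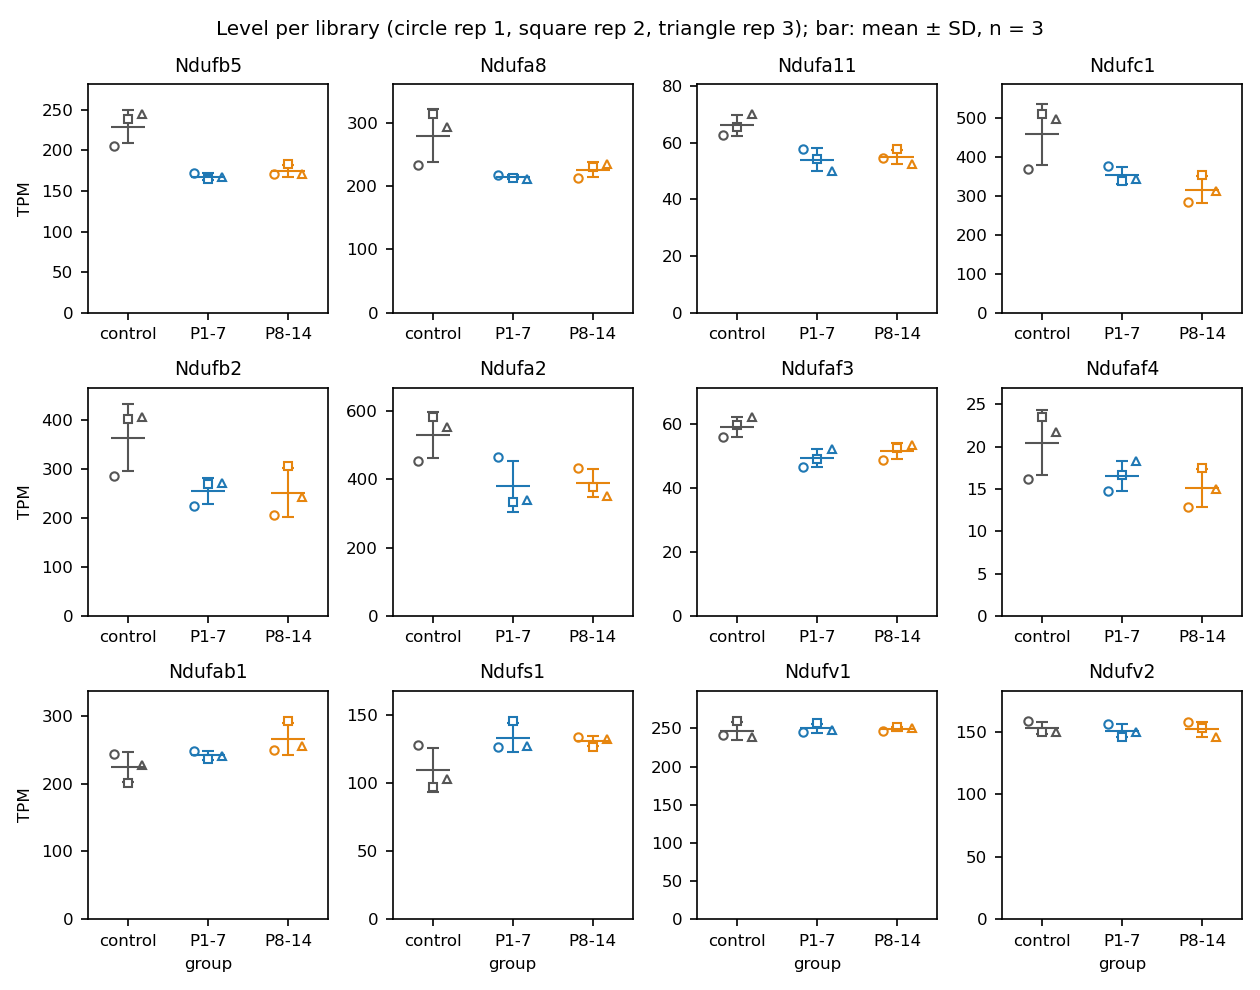
TPM of 12 Nduf genes in each library (circle, square and triangle for replicates 1, 2 and 3), with the group mean and SD (n = 3) and axes from 0. In the first 8 genes the exposed means are below control; Ndufab1 and Ndufs1 are above it, and Ndufv1 and Ndufv2 are level.

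The 7 core subunits encoded in the nucleus carry the flavin, the iron-sulfur clusters and the ubiquinone site, and several were level across groups. Ndufv1, which holds the flavin where NADH is oxidised, stood at 241, 260.1 and 239 TPM in the controls, 245, 257 and 248 in PFOS P1-7 and 247, 252 and 251 in PFOS P8-14. The groups coincided, and the 95% interval of the early difference was -0.12 to 0.16. Ndufv2, its partner with an iron-sulfur cluster, stood at 159, 150.1 and 150.2 TPM in the controls, 156, 146 and 150.2 in PFOS P1-7 and 158, 153 and 145 in PFOS P8-14. For these 2 genes the differences from control ran from -0.02 to 0.02, and the intervals reached 0.17 at most on either side.

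Ndufs1 (chromosome 1, 63143592 to 63176822), the largest core subunit, which carries several iron-sulfur clusters, was the exception in the upward direction. It stood at 128, 97.4 and 103 TPM in the controls, 127, 146 and 128 in PFOS P1-7 and 134, 126 and 133 in PFOS P8-14. Control replicate 1 lay inside the exposed range and the other controls below it, so the groups overlapped through that library. The differences were 0.29 (SE 0.11) and 0.27 (SE 0.11), with adjusted p = 0.221 and 0.436. With a transcript of 2590 bases, Ndufs1 is the longest of the subunits. With length and GC dependence taken out, its unadjusted p in limma was not below 0.05 in either comparison. Over all settings its differences ran from 0.18 to 0.41 in PFOS P1-7 and from 0.19 to 0.38 in PFOS P8-14.

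Further core subunits stood lower or overlapped. Ndufs7, which carries the last cluster before ubiquinone, stood at 281, 343 and 331 TPM in the controls, 252, 281 and 258 in PFOS P1-7 and 246, 285 and 289 in PFOS P8-14. Control replicate 1 overlapped the exposed libraries, and the differences were -0.27 (SE 0.10) and -0.21 (SE 0.10). Ndufs8, which carries iron-sulfur clusters next to the ubiquinone site, stood at 323, 291 and 287 TPM in the controls, 316, 232 and 237 in PFOS P1-7 and 307, 282 and 278 in PFOS P8-14. Replicate 1 was the highest library of each group, and the differences were -0.21 (SE 0.12) and -0.05 (SE 0.12). Ndufs3 stood at 287, 308 and 328 TPM in the controls, 311, 272 and 278 in PFOS P1-7 and 292, 302 and 289 in PFOS P8-14, with overlapping groups and differences of -0.10 and -0.06.

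Accessory subunits of the matrix arm were mixed. Ndufa2, of the NADH-oxidising module, stood at 453, 581 and 554 TPM in the controls, 465, 333 and 341 in PFOS P1-7 and 433, 379 and 352 in PFOS P8-14. All late-exposed libraries were below control (-0.44, SE 0.15, adjusted p = 0.426), and early-exposed replicate 1 alone reached the control range (-0.49, SE 0.15, adjusted p = 0.207). Ndufs6, the zinc-binding subunit, was below all controls after early exposure (-0.22, SE 0.09). Ndufa9, which sits near the ubiquinone site, stood at 238, 187 and 187 TPM in the controls, 229, 219.5 and 212 in PFOS P1-7 and 211, 215 and 223 in PFOS P8-14. Control replicate 1 was its highest library and the other controls its lowest, and the differences were 0.12 and 0.09. Ndufa5 stood at 384, 561 and 539.6 TPM in the controls, 402, 458 and 483 in PFOS P1-7 and 342, 479.5 and 426 in PFOS P8-14, its replicate 1 libraries the lowest of all, with -0.13 and -0.24. In the NADH-oxidising module as a whole, 8 of 10 genes were lower after early and 7 of 10 after late exposure (medians -0.08 and -0.06). In the ubiquinone-reducing module it was 4 of 6 in both (-0.11 and -0.06), in the proximal membrane arm 8 of 9 in both (-0.29 and -0.16), and in the distal membrane arm 8 and 7 of 11 (-0.17 and -0.10). Among all tested genes, 34.5% and 37.9% were lower. With length and GC dependence taken out, the 4 medians were -0.04, -0.04, -0.09 and -0.02 after early exposure, in the same order. After late exposure they were -0.02, 0.02, -0.09 and -0.004. No difference between the modules was tested.

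Assembly factors were lower in 6 of 7 cases in either group, from -0.06 to -0.28 in PFOS P1-7 and from -0.12 to -0.41 in PFOS P8-14. Among all tested genes, 34.5% and 37.9% were lower. The summed level of the 7 was 242 ± 7.09 TPM in control, 216 ± 4.73 TPM in PFOS P1-7 and 215 ± 5.43 TPM in PFOS P8-14. The lowest control sum (234 TPM) exceeded the highest exposed sum (221 TPM). Ndufaf3 (chromosome 9, 108565587 to 108567436), which works with Ndufaf4 on the early ubiquinone module, stood at 56.0, 59.7 and 62.2 TPM in the controls, 46.8, 49.3 and 52.4 in PFOS P1-7 and 48.9, 52.6 and 53.7 in PFOS P8-14. Both exposed groups were below all controls (-0.26, SE 0.08 and -0.19, SE 0.08, adjusted p = 0.208 and 0.443). Ndufaf4 (chromosome 4, 24898083 to 24905001) stood at 16.2, 23.4 and 21.8 TPM in the controls, 14.8, 16.6 and 18.3 in PFOS P1-7 and 12.9, 17.4 and 15.0 in PFOS P8-14, where control replicate 1 lay inside the exposed range (-0.28, SE 0.16 and -0.41, SE 0.16, adjusted p = 0.357 and 0.429).

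Ndufaf5, an enzyme that hydroxylates an arginine of Ndufs7, stood at 19.6, 20.2 and 18.7 TPM in the controls, 16.9, 17.8 and 15.5 in PFOS P1-7 and 16.5, 17.4 and 16.5 in PFOS P8-14. Both exposed groups were below all controls, with differences of -0.21 (SE 0.09) and -0.20 (SE 0.09). Ndufaf7, a methyltransferase, stood at 31.3, 34.1 and 33.9 TPM in the controls, 29.2, 31.4 and 32.2 in PFOS P1-7 and 31.1, 29.6 and 28.9 in PFOS P8-14, and only the late group was clear of control (-0.14, SE 0.08). Ndufaf2, a late-acting relative of Ndufa12, stood at 71.1, 65.8 and 66.8 TPM in the controls, 65.0, 59.2 and 58.9 in PFOS P1-7 and 62.8, 62.4 and 61.5 in PFOS P8-14. Both exposed groups were below all controls there too (-0.15, SE 0.07 and -0.12, SE 0.07), and the differences were 0.04 and 0.06 when length and GC dependence was taken out and control replicate 1 left out. Ndufaf1, of the complex that builds the proximal membrane arm, stood at 30.9, 35.97 and 32.2 TPM in the controls, 27.8, 33.5 and 34.0 in PFOS P1-7 and 28.1, 30.0 and 27.5 in PFOS P8-14, and was clear of control in the late group only (-0.20, SE 0.10). Ndufaf6 alone was higher, at 8.63, 7.32 and 9.83 TPM in the controls, 9.80, 9.40 and 7.99 in PFOS P1-7 and 10.2, 11.5 and 10.1 in PFOS P8-14, with all late-exposed libraries above every other library (0.28, SE 0.13, adjusted p = 0.455). A further assembly factor, Ndufaf8, is in the table under its older symbol 1810043H04Rik and so is no member by symbol; its differences were -0.16 and -0.09.

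The 2 genes now counted with complex IV overlapped in all groups. Ndufa4 stood at 1607, 1967 and 2186 TPM in the controls, 1574, 1795 and 1890.4 in PFOS P1-7 and 1483, 1974 and 1806 in PFOS P8-14, with replicate 1 the lowest library of each group and differences of -0.12 (SE 0.14) and -0.13 (SE 0.14). Ndufa4l2, a hypoxia-induced relative, stood at 4.99, 9.44 and 5.10 TPM in the controls, 5.75, 7.2 and 8.12 in PFOS P1-7 and 5.02, 7.38 and 6.25 in PFOS P8-14, with differences of 0.13 (SE 0.23) and -0.02 (SE 0.23).

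Between the exposure windows the differences were small beside their errors. Of the 45, 14 were lower and 31 higher in PFOS P8-14 than in PFOS P1-7, with medians of 0.04 for subunits and 0.01 for assembly factors, beside -0.03 for all tested genes. Among all tested genes, 61.2% were lower. In limma 0 members passed (0.0% of tested genes), and at an unadjusted p below 0.05 there were also 0 in either direction, beside 0.635% of tested genes lower and 0.467% higher. The smallest p was that of Ndufs5, an accessory subunit on the intermembrane-space side, at 369, 346 and 414 TPM in the controls, 304, 388 and 268 in PFOS P1-7 and 373, 383 and 363 in PFOS P8-14. Early-exposed replicates 1 and 3 were its lowest libraries and replicate 2 its second highest of all, so the groups overlapped (0.24, SE 0.13, 95% interval -0.05 to 0.52, adjusted p = 0.9998). For Ndufb5 the difference was 0.06 (interval -0.12 to 0.24), for Ndufc1 -0.16 (-0.45 to 0.13) and for Ndufab1 0.13 (-0.07 to 0.34). These intervals do not show that the windows act alike. When the 3 groups were tested jointly (moderated F test in limma), 0 members passed (0.0% of tested genes), and 9 members (20%) had an unadjusted p below 0.05, beside 11.3% of tested genes.

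The medians differed between libraries of one group. The median deviation of the 36 subunits was 0.11 and 0.13 in control replicates 2 and 3 but 0.003 in control replicate 1, against -0.09 to -0.02 in PFOS P1-7 and -0.04 to 0.03 in PFOS P8-14. All tested genes mirrored it, at -0.08 and -0.07 in control replicates 2 and 3 and 0.03 in control replicate 1. Assembly factors stood at 0.002, 0.16 and 0.08 in the controls and between -0.09 and 0.01 in the exposed libraries.

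**Figure D4:**
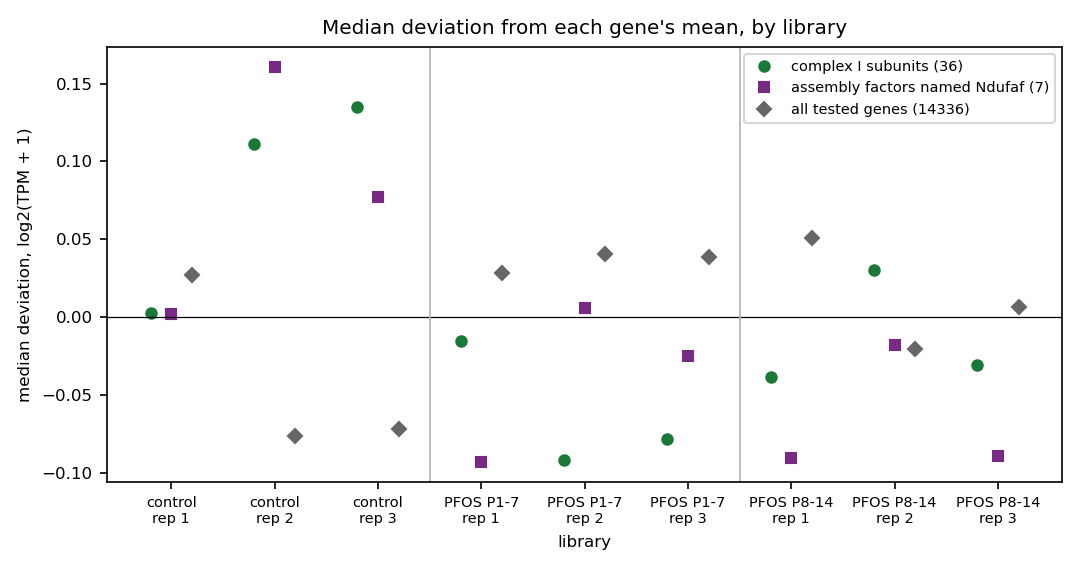
Median deviation from each gene's mean, on the log2(TPM + 1) scale, in each of the 9 libraries for the 36 complex I subunits (circles), the 7 assembly factors (squares) and all 14336 tested genes (diamonds). Subunits are highest in control replicates 2 and 3, where all tested genes are lowest, and control replicate 1 lies near 0.

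Most members have short transcripts: the median transcript of the subunits has 812 bases, that of the assembly factors 1451 and that of all tested genes 2823. Across the 36 subunits, Spearman's rho between length and the difference from control was 0.54 in PFOS P1-7 and 0.56 in PFOS P8-14, and across all tested genes 0.46 and 0.40 (genes are not independent replicates). The 23 subunits with transcripts under 1000 bases had medians of -0.21 and -0.14, and the 13 longer ones -0.02 and 0.01. The 711 tested genes with the shortest transcripts, a median of 642 bases, had medians of -0.19 and -0.17, close to those of the short subunits. With each library's trend on length and GC content removed, the medians of the subunits were -0.06 and -0.02 and those of all tested genes -0.01 and -0.01. The 711 genes with the shortest transcripts were then at -0.04 and -0.04. Medians of the membrane arm were -0.08 and -0.02, and those of the matrix arm -0.04 and -0.005. Accessory subunits were at -0.07 and -0.02, and core subunits at -0.02 and 0.03.

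The medians of the assembly factors were -0.16 and -0.18 under that removal. Unadjusted, 6 members were then lower after early exposure (13.3%, beside 7.73% of tested genes) and 0 higher (beside 5.35%). These were Ndufb5 (-0.42), Ndufaf4 (-0.42), Ndufa2 (-0.34), Ndufa8 (-0.26), Ndufaf3 (-0.20) and Ndufaf7 (-0.16). After late exposure 8 were lower (17.8%, beside 6.66%) and 2 higher (4.44%, beside 4.16%), the latter Ndufab1 (0.24) and Ndufaf6 (0.32). By contrast Ndufa11 was at -0.07 and -0.09, and Ndufs7 at -0.07 and -0.08. What made the length trend was not tested.

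**Figure D5:**
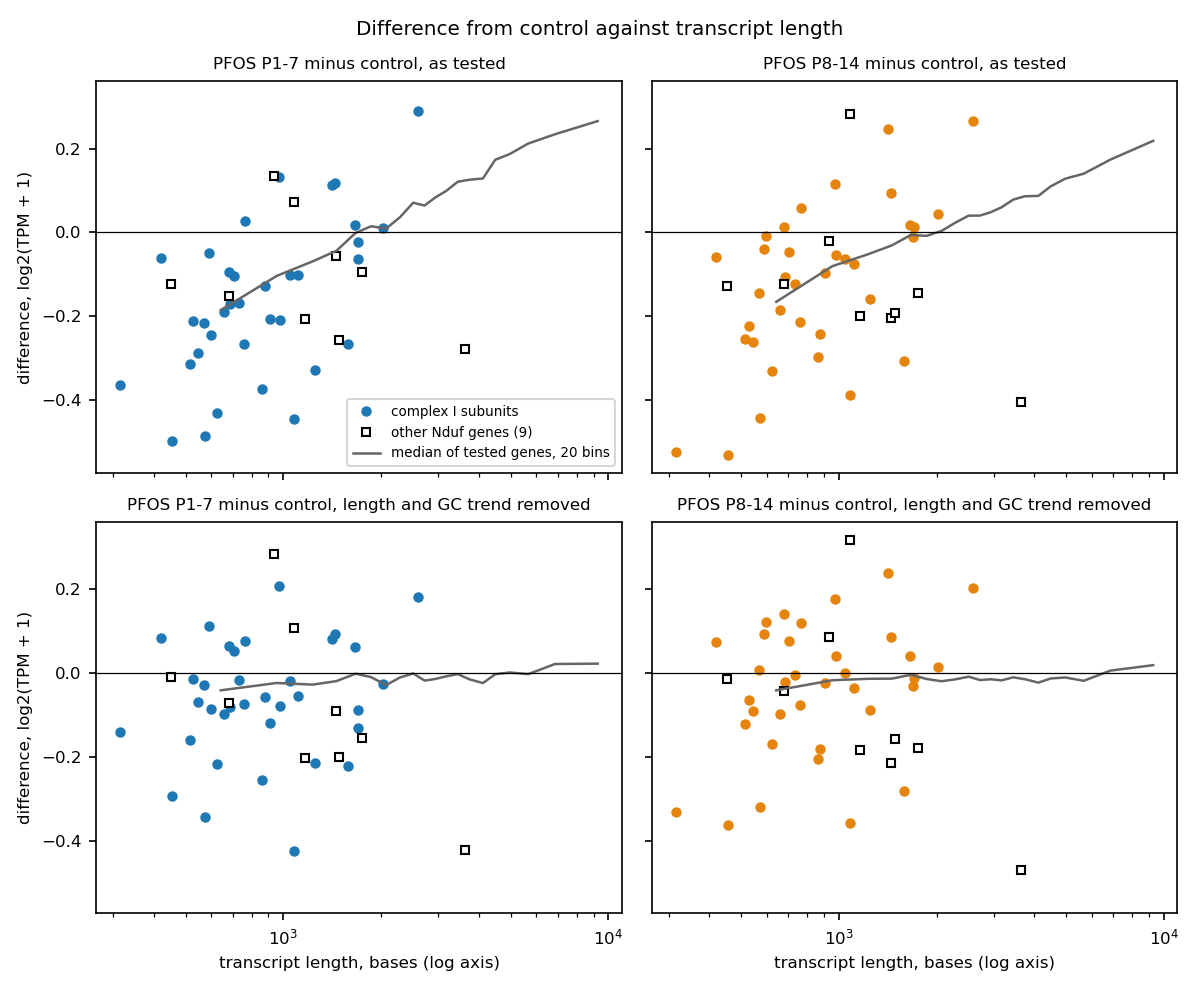
Difference from control on the log2(TPM + 1) scale against transcript length (log axis) for 35 subunits (filled circles) and the 9 other Nduf genes (open squares), with the median of all tested genes in 20 length bins as a line. As tested (top) the subunits follow the rising line. With the length and GC trend removed (bottom) the line rises only from -0.04 in the shortest bin to 0.02 in the longest. Most subunits then centre near 0, while some members stay lower. Among these are Ndufb5 and Ndufaf4, between -0.47 and -0.36, and in PFOS P8-14 also Ndufa2, Ndufb2 and Ndufc1.

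Leaving out control replicate 1 changed the calls. Without it, 15 members passed in limma for PFOS P1-7: 13 lower (28.9%, beside 4.47% of tested genes) and Ndufs1 and Ndufa9 higher (4.44%, beside 14.1%). For PFOS P8-14, 10 members were lower (22.2%, beside 3.4%) and Ndufs1 higher (2.22%, beside 8.74%). Ndufb5 then stood at -0.52 and -0.46 (adjusted p = 0.00498 and 0.00999), Ndufa8 at -0.50 and -0.42 (0.00554 and 0.0127) and Ndufc1 at -0.51 and -0.67 (0.0108 and 0.0101). The unadjusted counts were also lower without certain libraries: the 12 members lower after early exposure were 5 without control replicate 2 and 6 without control replicate 3. The 10 lower after late exposure were 4 and 5 without those controls, 5 without PFOS P8-14 replicate 1 and 6 without PFOS P8-14 replicate 3. The matching unadjusted shares of tested genes were not counted. Control replicates 2 and 3 have the most negative trend on transcript length. With the trend removed as well, a setting added after the data were seen, Ndufb5 and Ndufaf4 were lower in PFOS P1-7 (4.44% of members, beside 2.62% of tested genes) and 0 members higher (beside 3.21%). For PFOS P8-14, Ndufb5, Ndufaf4 and Ndufc1 were lower (6.67%, beside 2.19%) and Ndufab1 higher (2.22%, beside 2.51%). Ndufb5 was then at -0.46 and -0.39, and Ndufaf4 at -0.57 and -0.62 (adjusted p = 0.0209 and 0.0223).

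Markers of other cells moved with the groups in part. The summed level of 6 endothelium and pericyte markers was 306 to 337 TPM in control, 254 to 299 TPM in PFOS P1-7 and 285 to 293 TPM in PFOS P8-14. That of the 4 globin and erythroid markers with a value was 3262 to 5149 TPM in control, 2268 to 4314 TPM in PFOS P1-7 and 2155 to 2619 TPM in PFOS P8-14. The 10 excitatory neuron markers summed to 3379 to 4472, 4352 to 4777 and 4134 to 4839 TPM in the same order. The 7 oligodendrocyte markers summed to 9112 to 14997, 12430 to 17780 and 13833 to 14837 TPM. The 14 choroid plexus markers summed to 159 to 11065 TPM in control, 187 to 13001 TPM in PFOS P1-7 and 271 to 11111 TPM in PFOS P8-14, and no marker of these lists was at 0 in all libraries. With the choroid plexus level as a covariate the subunit medians were -0.19 and -0.16. The part of endothelial, blood, neuron and oligodendrocyte content in the results was not tested.

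Most genes of the other respiratory complexes also stood below control. Of 45 tested genes of complexes II to V, 36 and 30 were lower, beside 34.5% and 37.9% of all tested genes, with medians of -0.13 and -0.10. At an unadjusted p below 0.05, 12 (26.7%) and 8 (17.8%) were lower, beside 5.79% and 4.65% of tested genes. In the other direction 1 and 0 were higher, beside 12.5% and 6.33%. After taking out length and GC dependence, 28 and 25 were lower, beside 7407 and 7511 of 14213 tested genes, with medians of -0.056 and -0.059. Unadjusted, 5 and 6 of them were lower, beside 7.73% and 6.66%. The smallest p belonged to Uqcr11 in complex III (-0.54 and -0.47), Cox7a2l in the complex IV list (-0.30 and -0.29) and Atp5d of the ATP synthase (-0.34 and -0.23), and Sdha, the flavoprotein of complex II, stood at 0.20 and 0.21. No difference between the complexes was tested. Of 14 other complex I assembly factors 6 and 11 were lower (medians 0.01 and -0.07), 1 of them at an unadjusted p below 0.05 in each comparison, Timmdc1 (-0.39 and -0.32), a membrane-arm assembly factor. With length and GC dependence taken out, 8 and 12 of the 14 were lower, with medians of -0.08 and -0.13. Unadjusted, 2 and 3 of the 14 were then lower, beside 7.73% and 6.66% of tested genes. Of 11 regulators of mitochondrial biogenesis 1 and 4 were lower (medians 0.11 and 0.07). With length and GC dependence taken out, 4 and 6 of the 11 were lower (medians 0.007 and -0.0002). As tested, 2 single regulators stood as follows. Esrra, an estrogen-related receptor, stood at -0.24 and -0.27, below all controls in both groups, and Ppargc1a, the coactivator PGC-1alpha, at 0.29 and 0.15. The 16 markers of mitochondrial content, such as import and matrix proteins, had medians of 0.06 and 0.05, close to those of all tested genes.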

How the data were processed

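The authors deposited one table of gene TPM (abundance scaled by transcript length and library total) over 9 libraries from a stranded mRNA kit. The authors used, per the submitters' processing notes, RSEM 1.3.3, STAR 2.5.3a, fastp 0.21.0 and bcl2fastq, with mm10. The sources used here give no annotation or filter, nor how reads shared between gene copies were assigned. TPM sum to the same total in each library and keep no read depth, so depth is unknown and no counting interval can be given.

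From the deposited TPM, log2(TPM + 1) was computed, and a fold change on this scale understates changes of low genes. The 14336 genes (of 23412) that reached 1 TPM in 3 or more of the 9 libraries entered limma 3.58.1 (R 4.3.3), with 1 mean per group, a shared variance with trend, two-sided contrasts and Benjamini-Hochberg adjustment over all of them, at a threshold of 0.05. The script was tested on simulated data. Ranges, medians and sums were computed with pandas 2.3.3. Gene positions are those of RefSeq GRCm38.p6. Transcript lengths and GC content come from GENCODE principal transcripts and were held for 14213 tested genes.

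The members and all gene lists were chosen with earlier results of these data known. Values in every library are given for the 5 members with the smallest p in each direction of each comparison, the core subunits, the assembly factors, Ndufa4, Ndufa4l2 and the highest and lowest member. Of other pathway genes, at most those with the 2 smallest p per list are named. Subunits outside this rule (Ndufa1, Ndufa3, Ndufa6, Ndufa7, Ndufa10, Ndufa13, Ndufb3, Ndufb7, Ndufb9, Ndufs4, Ndufs6 and others) were named after their values were seen. 1 member is counted in the totals but is not reported here by itself, nor drawn in the figures of single genes. Alternatives were pseudocounts of 0.1 and 5, a filter of 5 TPM or none, median-of-ratios scaling, array weights, a choroid plexus covariate, removal of the length and GC trend by loess, only the 2 compared groups, the replicate number as a block and each library left out. Removal of the trend together with leaving out control replicate 1 was chosen after seeing the data.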

Additional observations from a re-analysis of the deposited data

How the results depend on the processing

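Where a named Nduf gene was called, its sign was that of the reported value, but uncalled differences did change sign, for up to 8 members in PFOS P1-7 and 11 in PFOS P8-14. Ndufaf2 ran from -0.23 to 0.04 and from -0.18 to 0.06 over the settings, Ndufb8 from -0.18 to 0.11 and from -0.05 to 0.19, and Ndufs8 from -0.35 to 0.02 and from -0.11 to 0.14. For the difference of PFOS P1-7 from control, array weights, which give control replicate 1 the lowest weight, called 2914 genes (20.3%) and 14 members. Of these members 13 were lower, beside 5.32% of tested genes. Under the same weights 20 members were lower at an unadjusted p below 0.05, and the subunit median was -0.23. Median-of-ratios scaling gave medians of -0.25 for subunits and -0.23 for assembly factors. With the length and GC trend removed, 6 members were lower unadjusted, beside 7.73% of tested genes, and the subunit median was -0.063. Leaving out each library in turn called 0 to 2658 genes and 0 to 15 members, with 5 to 17 members lower unadjusted and subunit medians of -0.22 to -0.11. The most calls came without control replicate 1, and 1 gene was called without PFOS P8-14 replicate 1. With the trend removed and control replicate 1 left out, 829 genes and 2 members were called and the subunit median was -0.029.

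For PFOS P8-14, array weights called 1053 genes (7.35%) and 7 members, 5 of them lower, beside 2.79% of tested genes. Unadjusted, 19 members were lower. The subunit median was -0.15 with median-of-ratios scaling, -0.16 with the choroid plexus covariate and -0.017 with the trend removed. Leaving out each library called 0 to 1741 genes and 0 to 11 members, with 4 to 18 lower unadjusted. The setting added after seeing the data called 668 genes and 4 members, with a subunit median of 0.00032. Between the exposed groups, 1 member was lower and 0 higher unadjusted with the trend removed, beside 88 and 100 of 14213 tested genes. In the added setting 1 member was lower and 1 higher, and the share of tested genes was not counted there. When libraries were left out, 0 to 1 were lower and 0 to 3 higher, the 3 without PFOS P1-7 replicate 1. The F test called 1532 genes and 10 members with array weights, 0 to 1493 and 0 to 8 with each library left out, and 398 and 2 in the added setting. The cause was not tested.

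Libraries share replicate numbers across groups, but not every same-numbered pair deviated together. The correlation ran from -0.47 (replicate 3 of control and PFOS P8-14) to 0.53 (replicate 1 of both exposed groups), and not every library correlated best with its own number, so the numbers were not taken as pairs. With the replicate block 0 genes passed, and 18 and 15 members were lower unadjusted in PFOS P1-7 and PFOS P8-14. For the replicate block, array weights and omitted libraries, the share of tested genes at an unadjusted p below 0.05 was not counted. The unadjusted member counts in those settings therefore have no background beside them. Depth is unknown, the SE of the PFOS P1-7 difference had a median of 0.13 over tested genes, and 3 libraries a group limit the precision.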
